A study of Mus musculus with 4 samples.

Results

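Fibroblasts of a preSC allograft were examined in the library labelled preSC_WT, a single-cell RNA library of 1 tumour sample grown in mice from preSC, a mouse line of precancerous neuroendocrine lung cells, labelled with the genotype WT. Cells were selected on their own RNA. A barcode had to hold at least 300 genes, at most 15% mitochondrial UMIs, at least 5 UMIs summed over Col1a1, Col1a2, Col3a1 and Dcn, and no UMI of Rgs5, Ptprc or Pecam1. A UMI is a molecular tag that marks 1 captured RNA molecule. Of 18468 barcodes that passed the gene and mitochondrial limits, 582 (3.15%, 95% exact interval 2.9 to 3.41) met the rule. The library held 18559 barcodes and 93376185 UMIs, with a median of 4023 UMIs per barcode.

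The same rule was applied to 3 further libraries. These were preSC_CracdKO, an allograft of the same line labelled with the genotype CracdKO, and CRPR2 and RPR2, both from mouse lungs of a tumour model started by gene deletion. The labels spell out neither lung name, and they give neither the host strain nor the site of the allografts. It selected 31 of 16137 passing barcodes in preSC_CracdKO, 974 of 11962 in CRPR2 and 367 of 9128 in RPR2. Levels are in CPM, where the summed UMIs of each gene are divided by all UMIs of the cell group. These 3′ UMI counts are not scaled by transcript length, so levels are compared between groups and not between genes. Cracd, the gene the label names, is listed as C530008M17Rik and had 86.6 CPM in tumour-gated cells of the library labelled preSC_CracdKO, against 6.53 CPM in those of the library labelled preSC_WT and 1.34 CPM in its core fibroblasts described below. The level goes against the label, although 3′ tags outside a deleted part would not show the deletion. Median depth per barcode was 5996 UMIs in preSC_CracdKO, 3300.5 in CRPR2 and 2873 in RPR2. With 1 library in each group, differences between animals could not be estimated, and no p-values are given. All intervals are exact, at 95%, and cover counting error only.

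Fibroblasts make and remodel the interstitial matrix, which is built on fibrils of type I and type III collagen that small proteoglycans such as decorin bind and space. They receive growth signals through the PDGF receptor alpha, and when activated in wounds and tumours some of them acquire contractile actin and become myofibroblasts. Fibroblasts marked by Pi16 and Dpp4 lie around vessels in many organs and are described as a reserve from which other fibroblasts arise. Small cell lung cancer is a neuroendocrine carcinoma, and the connective tissue of a graft comes from the host.

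The 582 barcodes were not of 1 kind. After the values had been seen, they were divided by the 3 collagen genes of the rule and by 5 epithelial or neuroendocrine genes, among them Epcam, Krt8, Krt18 and Chga. A core of 373 cells (64.1%) held at least 5 collagen UMIs and at most 2 epithelial UMIs, and 322 of them held no epithelial UMI. A further 137 barcodes (23.5%) held fewer than 5 collagen UMIs and had met the rule only with their Dcn UMIs added. The remaining 72 (12.4%) held both collagen and epithelial UMIs and are called mixed below. The core carried 1487624 UMIs, or 38.4% of those under the rule, and the decorin-only barcodes 46.5%.

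**Figure D1:**
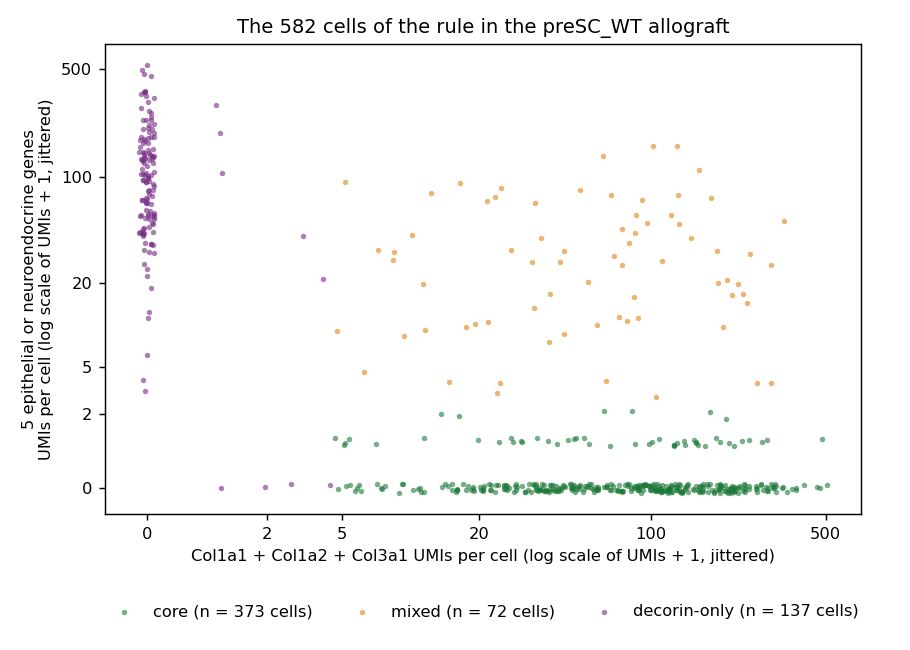
Each point is 1 of the 582 barcodes selected in preSC_WT, placed on log scales of UMIs + 1 by its summed Col1a1, Col1a2 and Col3a1 UMIs (horizontal) and its summed UMIs of 5 epithelial or neuroendocrine genes (vertical), and coloured as core, decorin-only or mixed. The 373 core cells lie along the bottom with a median of 89 collagen UMIs, and the 137 decorin-only barcodes stand apart with a median of 100 epithelial UMIs.

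As a group, the decorin-only barcodes did not carry a fibroblast profile, although 4 of them held no epithelial UMI. Of the 137, 128 had no UMI of the 3 collagen genes, and their median decorin count was 6, just inside the limit of 5. Their median depth was 10264 UMIs, against 3704 in the core. Neuroendocrine tumour markers summed to 15863 CPM in them, against 119.7 CPM in the core and 14468 CPM in tumour-gated cells of the library. The division itself uses the epithelial UMIs, so this contrast is a description. Any UMI of Pdgfra, Lum or Dpt was found in 334 of 373 core cells (89.5%, 86 to 92.5), against 3 of 137 decorin-only barcodes (2.19%, 0.454 to 6.27). None of Pdgfra, Lum and Dpt was used by the rule. Decorin stood at 19.9 UMIs per 100 collagen UMIs in the core, against 4845 in the decorin-only barcodes, 646 in tumour-gated cells, 19.1 in T cells, 15.2 in macrophages and 13.9 in endothelial cells. The ratio in T cells, macrophages and endothelial cells lay near that of the core, and the ratio in tumour-gated cells did not. The tumour gate leaves out barcodes that met the rule, and decorin-only barcodes hold fewer than 5 collagen UMIs by definition. This contrast is therefore partly set by how the groups were chosen.

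The label therefore held for the core and not for the decorin-only barcodes as a group, and the core is described first in what follows. Scrublet, a doublet caller, marked 1 core cell, 1 decorin-only barcode and 17 of the 72 mixed barcodes (23.6%). At the threshold, 62 barcodes had a rule sum of 5, of which 55 had no collagen UMI, and 132 barcodes with a sum of 4 stood just outside, of which 116 had none. Among the 582 barcode sequences, 3 also occurred in preSC_CracdKO, 3 in CRPR2 and 2 in RPR2, and none of these met the rule there. The core criterion left 5 cells in preSC_CracdKO, 92 in CRPR2 and 19 in RPR2.

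The 4 marker genes given for these cells were all present in the core. Col1a1, a chain of type I collagen, had 6059 CPM (5935 to 6186) in the core and 1.84 CPM in tumour-gated cells, and 356 of 373 core cells held it. Col3a1, the chain of type III collagen, had 12976 CPM in the core and 4.89 CPM in tumour-gated cells, and all 373 core cells held it. Dcn, which encodes decorin, had 5504 CPM (5385 to 5625) in the core and 57.7 CPM in tumour-gated cells. The tumour gate leaves out barcodes that met the rule, which limits its collagen and decorin levels. Pdgfra, the PDGF receptor alpha, had 214 CPM (191 to 239) in the core and 0.359 CPM in tumour-gated cells. Of these genes Pdgfra was seen in the fewest core cells, with a UMI in 173 core cells (46.4%, 41.2 to 51.6). Thinned to 1000 UMIs per cell, decorin was seen in 87.9% of 347 core cells, against 5.25% of tumour-gated cells and 1.94% of T cells, while 26 shallower core cells were left out.

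Markers of other cell types were low in the core. Summed markers of pericytes and smooth muscle had 419 CPM in the core, against 9390.0 CPM in pericyte-gated cells. Endothelial markers summed to 51.8 CPM, with Pecam1, which the rule bars, Tie1 and Cldn5 at 0. Macrophage and monocyte markers summed to 51.1 CPM with Mrc1 at 0, T cell markers to 24.2 CPM, B cell markers to 32.9 CPM and all 6 adipocyte markers to 0. Keratinocyte markers summed to 340.1 CPM in the core, although the defining Krt5, Krt14, Krt1 and Trp63 were at 0.

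Col3a1 was in every core cell and Postn divides them below. Dpp4 and C3 were higher in the Pi16-only cells of that division. The 150 bases before the RefSeq start of each of these genes are therefore shown here. They come from the RefSeq promoter table for GRCm38.p6, 5′ to 3′ on the strand of the gene, and capitals mark the motif TATAAA. Col3a1 lies on the plus strand, and its window is chr1:45311388-45311537. The windows of the others are chr3:54360957-54361106 on the plus strand for Postn, chr2:62412232-62412381 on the minus strand for Dpp4 and chr17:57228137-57228286 on the minus strand for C3.
Col3a1: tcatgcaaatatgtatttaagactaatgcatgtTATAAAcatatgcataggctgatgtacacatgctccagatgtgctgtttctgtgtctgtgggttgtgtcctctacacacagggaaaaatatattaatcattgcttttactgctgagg
Postn: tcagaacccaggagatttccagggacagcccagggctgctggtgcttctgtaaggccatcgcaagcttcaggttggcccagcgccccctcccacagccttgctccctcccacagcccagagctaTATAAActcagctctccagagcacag
Dpp4: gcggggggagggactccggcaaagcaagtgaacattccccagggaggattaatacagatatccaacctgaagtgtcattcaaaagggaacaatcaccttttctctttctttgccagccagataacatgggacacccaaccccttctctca
C3: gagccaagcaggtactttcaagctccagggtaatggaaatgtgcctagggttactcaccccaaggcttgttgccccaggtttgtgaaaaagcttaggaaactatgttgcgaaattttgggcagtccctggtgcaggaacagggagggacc

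Both strands were searched for TATAAA and for CCAAT, whose letters do not overlap one another. TATAAA began 26 bases before the start of Postn and 117 bases before that of Col3a1. Neither motif was in the windows of Dpp4 and C3, and CCAAT was in none of the 4. Of 32851 windows of the same length in the table, 7.57% held TATAAA and 24.5% held CCAAT.

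Against all other passing barcodes of the library, 17.2% of 8836 measured genes were at least 2-fold higher in the core and 38.9% at least 2-fold lower. A gene counted as higher or lower when the ratio of CPM, each with 1 CPM added, reached 2 and the higher group held at least 20 CPM. For the 582 barcodes of the rule these shares were 9.66% and 1.95%. The rule also holds the decorin-only and mixed barcodes, and the part of each in this change was not tested. Both comparisons use the values that chose the cells and are given as a description. Outside the rule, the genes with the highest ratio were Pamr1 (743-fold, 363 to 1769), Efemp1 (737-fold), Dpep1 (689-fold), Mmp3 (682-fold) and Cxcl14 (659-fold, 584 to 746). Lum, a proteoglycan of collagen fibrils, Clec3b, which encodes tetranectin, Sfrp2 and Sfrp4, which bind Wnt ligands, and Prg4, which encodes lubricin, followed at 639.8-fold, 623-fold, 606-fold, 568-fold and 598-fold.

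The matrix programme was broad. All 12 measured fibrillar and beaded collagens were higher in the core than in the rest, with a median log2 ratio of 6.62, against a median of −0.65 over all measured genes. Col1a2 had 8689 CPM in the core, Col5a2 of type V collagen 1106 CPM and Col6a1 of type VI collagen 936 CPM. Sparc, which binds collagen in basement membranes and stroma, had 14762 CPM in the core and 7.1 CPM in tumour-gated cells. Proteoglycans and glycoproteins were higher for 20 of 21 members. Bgn, which encodes biglycan, had 2973 CPM, Fn1, fibronectin, 2948 CPM, and Mfap5, a protein of microfibrils, 1919 CPM in the core. All 9 elastic fibre genes and all 16 collagen processing enzymes were higher. They include Fbn1, fibrillin, at 1294 CPM, Serpinh1, the collagen chaperone, at 1697 CPM, and Pcolce, which enhances removal of the procollagen propeptide, at 874 CPM.

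Enzymes that break down matrix were present beside those that build it. All 17 measured proteases and inhibitors were higher in the core than in the rest. The protease inhibitors Timp2 and Timp1 had 1337 and 936 CPM in the core, the cathepsins Ctsl and Ctsb 922 and 650 CPM, and the metalloproteases Mmp3 and Mmp2 626 and 556 CPM. Complement was carried by 9 measured genes, all higher than in the rest with a median log2 ratio of 7.01. C3, the central component, had 1953 CPM in the core, and Serping1, the C1 inhibitor, 2356 CPM. C4b had 1169.7 CPM and C1s1, a C1 protease, 505 CPM.

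Genes of signalling fell into several groups. The 14 measured genes of inflammatory cancer fibroblasts were all higher in the core, including Gsn, gelsolin, at 2934 CPM and Clec3b at 1389 CPM, while the cytokine Il6 had 65.2 CPM. Of 16 measured chemokines, 13 were higher and 3 lower, with Cxcl14 at 2126 CPM and the monocyte attractants Ccl7 and Ccl2 at 557 and 509.5 CPM. Cxcl12, a lymphocyte attractant, had 508 CPM. Genes of adventitial fibroblasts were higher for 11 of 12 members, with Ly6a, the stem cell antigen Sca-1, at 3729 CPM, Ly6c1 at 1357 CPM and Pi16 at 573 CPM. Among insulin-like growth factor genes 5 of 9 were higher, with the binding proteins Igfbp7, Igfbp6 and Igfbp4 at 3551, 1693 and 1001 CPM and the ligand Igf1 at 321 CPM.

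Cell cycle genes were low in the core. All 20 S phase genes and all 20 genes of G2 and M phase were lower in the core than in the rest. At least 5 UMIs of the G2 and M list were held by 27 of 373 core cells (7.24%, 4.82 to 10.4), against 101 of 137 decorin-only barcodes (73.7%, 65.5 to 80.9). These counts were not thinned, and the decorin-only barcodes are deeper.

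**Figure D2:**
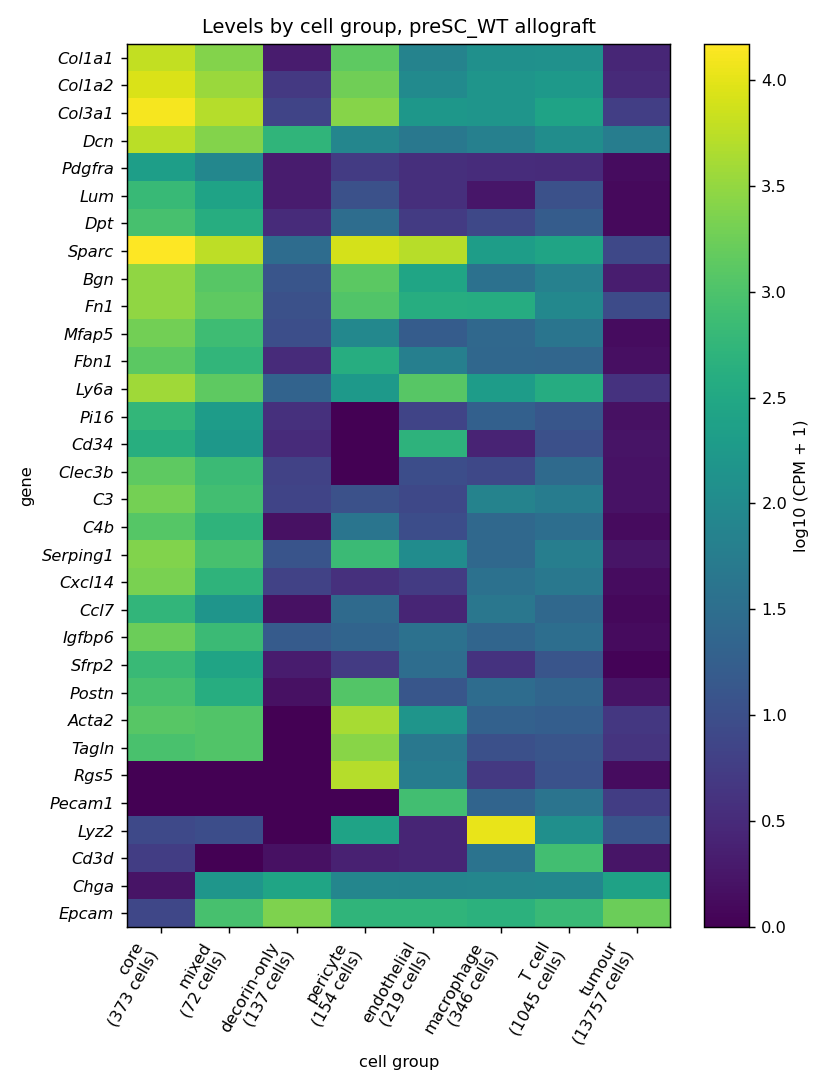
Heat map of levels in preSC_WT, with genes as rows, cell groups as columns and colour on a scale of log10 (CPM + 1), from 1 library. Col1a1 stands at 6059 CPM in the core, 1377 CPM in pericytes and 1.84 CPM in tumour-gated cells, and Acta2 stands at 1203 CPM in the core, below the 4160 CPM of pericytes.

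Pericytes are the contractile cells that wrap capillaries, and 154 were gated by at least 3 UMIs of Rgs5 with no Ptprc or Pecam1. Of the gated groups they held the most fibroblast marker RNA, at 7023 CPM, against 741 CPM in T cells, the next highest. Likeness over all genes was not measured. Against them 9.72% of 8027 genes were higher and 26.4% lower in the core, with a median log2 ratio of −0.44. For the 582 barcodes of the rule the shares were 8.99% and 9.13%. Tumour RNA moved with this comparison. The neuroendocrine tumour markers summed to 119.7 CPM in the core and 4719.7 CPM in pericytes, of which 38.3% held a UMI of them, and 15 of 15 measured markers were lower in the core. The core was limited to 2 epithelial UMIs per cell and the pericytes were not. Of 15 measured G2 and M genes, 12 were lower in the core. The part of tumour RNA in the share of lower genes was not tested. Genes of adventitial and inflammatory fibroblasts separated the groups. All 11 measured adventitial genes, all 14 inflammatory genes, 13 of 14 chemokines and 8 of 9 complement genes were higher in the core.

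Several of these had no UMI in pericytes. Clec3b had 1389 CPM in the core and 0 in pericytes, at least 328-fold higher against a floor of 3 UMIs. Mmp3 was likewise at least 148-fold, Pi16 at least 136-fold and Cd34, a surface sialomucin, at least 98.1-fold higher. Cxcl14 had 2126 CPM in the core and 2.82 CPM in pericytes (754-fold, 209 to 6228). C3 had 1953 CPM in the core and 9.87 CPM in pericytes (198-fold, 96 to 493). Decorin (Dcn) had 5504 CPM in the core and 81.8 CPM in pericytes (67.3-fold, 52 to 88.7). Pdgfra was 50.5-fold higher (17.1 to 246), with 214 CPM in the core and 4.23 CPM in pericytes.

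Col1a1 and Col3a1, which chose the core, were lower in pericytes, and most contractile genes were lower in the core. Col1a1 had 6059 CPM in the core and 1377 CPM in pericytes (4.4-fold, 4.12 to 4.7), and over the rule the ratio was 1.96. Of 12 collagens, 6 were higher and 1 lower in the core. Of 12 contractile genes 9 were lower and none higher in the core, with a median log2 ratio of −1.65. Acta2, smooth muscle actin, had 1203 CPM in the core and 4160 CPM in pericytes (3.46-fold lower, 3.26 to 3.67). Tagln had 922 and Tpm2 571 CPM in the core, against 2687 and 1919 CPM in pericytes. Of 12 basement membrane genes 2 were higher and 3 lower in the core, with a median log2 ratio of 0.50. Col4a1, a basement membrane collagen, had 675 CPM in the core and 2742 CPM in pericytes (4.06-fold lower, 3.76 to 4.39). Pdgfrb, the PDGF receptor beta, had 131 CPM in the core and 646 CPM in pericytes (4.93-fold lower). Higd1b, a pericyte marker, had 8.07 CPM in the core and 751 CPM in pericytes (93.1-fold lower, 52.9 to 181). H2-M9 had no UMI in the core and 234 CPM in pericytes, at least 116-fold lower in the core. Postn, periostin, differed little, with 909.5 CPM in the core and 1119 CPM in pericytes.

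The lung libraries allow the allograft fibroblasts to be set beside fibroblasts of lung tumours. Tissue, model, host and counting version all differ between the libraries and cannot be told apart. Sex-linked genes differed from RPR2 too, at a sum of 127 CPM in the allograft core, 144 CPM in the CRPR2 core and 878 CPM in the RPR2 core. Of 4 measured against RPR2, 3 were higher and 1 lower in the allograft core, and all 3 measured against CRPR2 lay within 2-fold. The part of sex in these comparisons was not tested. By the rule, 840 of the 974 CRPR2 barcodes and 341 of the 367 RPR2 barcodes held no collagen UMI, so the comparison of core with core is led with. The rule gave 15.8% of 8323 genes higher and 6.57% lower than in CRPR2, and 16.5% of 8480 higher and 8.73% lower than in RPR2. The core gave 14.6% of 6998 genes higher and 10.4% lower than in CRPR2, and 22.2% of 7267 higher and 23.6% lower than in RPR2. The 92 CRPR2 core cells held 843628 UMIs. Scrublet marked 17 of them (18.5%), against 9.73% of all passing CRPR2 barcodes, and they were kept. The share over all CRPR2 barcodes was set by a fixed rate, because Scrublet's own threshold marked too few cells there. In preSC_WT its own threshold marked 1.93% of passing barcodes and 0.268% of the allograft core. The shares of the CRPR2 core and the allograft core thus come from unlike thresholds and cannot be compared. The 19 RPR2 core cells held 101699 UMIs, and macrophage and monocyte markers summed to 2704 CPM in them, so 1 cell can set a value there.

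Among the genes that chose the cells, Col3a1 and Dcn stood higher in the allograft core than in both lung cores, which is a description. Median depth was 3704 UMIs in the allograft core, 8322 in the CRPR2 core and 4965 in the RPR2 core. The limit of 5 collagen UMIs thus asks for a smaller share of collagen in the deeper lung cells, and its part in these levels was not tested. Col3a1 had 12988 CPM in the allograft core, against 3835 CPM in CRPR2 (3.39-fold, 3.26 to 3.52) and 3365 CPM in RPR2 (3.86-fold, 3.47 to 4.31). These levels are over the 30406 gene identifiers that both annotations hold. Decorin (Dcn) had 5509 CPM in the allograft core, against 987 CPM in CRPR2 (5.58-fold, 5.2 to 6) and 1697 CPM in RPR2 (3.25-fold, 2.79 to 3.8). Only 6 of the 19 RPR2 core cells held decorin. Col1a1 stayed within 2-fold of CRPR2 (1.62-fold) and was 2.57-fold higher than in RPR2. Of 12 collagens 5 were higher than in CRPR2, 6 than in RPR2 and 2 than in both, none was lower, and the others lay within 2-fold. Elastin and Mfap4, both of elastic fibres, stood the other way. Eln had 638 CPM in the allograft core, against 1684 CPM in CRPR2 (2.64-fold lower) and 3739.7 CPM in RPR2 (5.86-fold lower). Mfap4 had 266 CPM in the allograft core, against 451 CPM in CRPR2 and 2891 CPM in RPR2.

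Of 11 adventitial genes measured against both lung cores, 9 were higher in the allograft core than in both and none was lower than in both. Ly6a had 3732 CPM in the allograft core, against 8.33 CPM in CRPR2 (448-fold, 217 to 1115) and 197 CPM in RPR2 (18.9-fold, 12.2 to 31). Ly6c1 had 1358 CPM in the allograft core, against 0 in CRPR2 (at least 381-fold) and 109 CPM in RPR2 (12.5-fold, 6.98 to 25.1). Dpp4, a surface peptidase, had 135 CPM in the allograft core and no UMI in either lung core, at least 37.9-fold and 4.57-fold higher. Pi16, a secreted cysteine-rich protein, had 574 CPM in the allograft core, against 1 UMI in CRPR2 (483-fold, 86.4 to 19081) and 207 CPM in RPR2, where all 21 UMIs came from 1 cell.

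Inflammatory and complement genes pointed mostly the same way. Of 14 inflammatory genes measured against both, 10 were higher than in both, as were 10 of 14 chemokines and 5 of 9 complement genes. Over all measured genes, 681 of 6590 were higher than in both lung cores and 404 lower than in both. C3 had 1955 CPM in the allograft core, against 301 CPM in CRPR2 (6.5-fold, 5.71 to 7.42) and 937 CPM in RPR2 (2.09-fold, 1.7 to 2.59). Ccl2 had 510 CPM in the allograft core, against 89.2 CPM in CRPR2 (5.72-fold) and 0 in RPR2 (at least 17.2-fold). Saa3, an acute phase protein, was an exception at 242 CPM in the allograft core, against 1412 CPM in CRPR2 (5.83-fold lower, 5.18 to 6.58). Gsn had 2937 CPM in the allograft core, against 885 CPM in CRPR2 (3.32-fold higher) and 7065 CPM in RPR2 (2.41-fold lower).

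Contractile genes were lower in the allograft core, 7 of 12 against CRPR2, 10 of 12 against RPR2 and 5 of 12 against both, with none higher. Markers of pericytes and smooth muscle moved with them, lower for 5 of 7 measured against CRPR2 and 4 of 7 against RPR2, with none higher. They summed to 419.9 CPM in the allograft core, against 772 CPM in CRPR2 and 1549 CPM in RPR2. Of 5 measured against both, 1 was lower than in both. The part of pericytes and smooth muscle cells in the contractile difference was not tested. Acta2 had 1204 CPM in the allograft core, against 2783 CPM in CRPR2 (2.31-fold lower, 2.17 to 2.46) and 2989.8 CPM in RPR2 (2.48-fold lower, 2.19 to 2.81). Over the whole rule, with its decorin-only barcodes, none of 11 measured contractile genes was lower and 4 were higher than in CRPR2 and 8 than in RPR2. The direction for this list thus depends on whether the core or the whole rule is taken. Decorin-only barcodes held 46.5% of the UMIs under the rule in preSC_WT, 84.6% in CRPR2 and 95.3% in RPR2. The part of this unequal share in the change of direction was not tested. TGF beta genes were lower for 8 of 18 against CRPR2, where 10.4% of all measured genes were lower. They were led by Grem1 with 0 UMIs in the allograft core and 218 CPM in CRPR2 (at least 108-fold lower). Against RPR2 5 of 18 were lower, a share close to the 23.6% of all measured genes. Of 17 measured against both, 2 were lower than in both, beside 6.13% of all measured genes. Inhba, an activin chain, had 39.7 CPM in the allograft core and 766 CPM in CRPR2 (19.3-fold lower, 14.8 to 25.6).

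**Figure D3:**
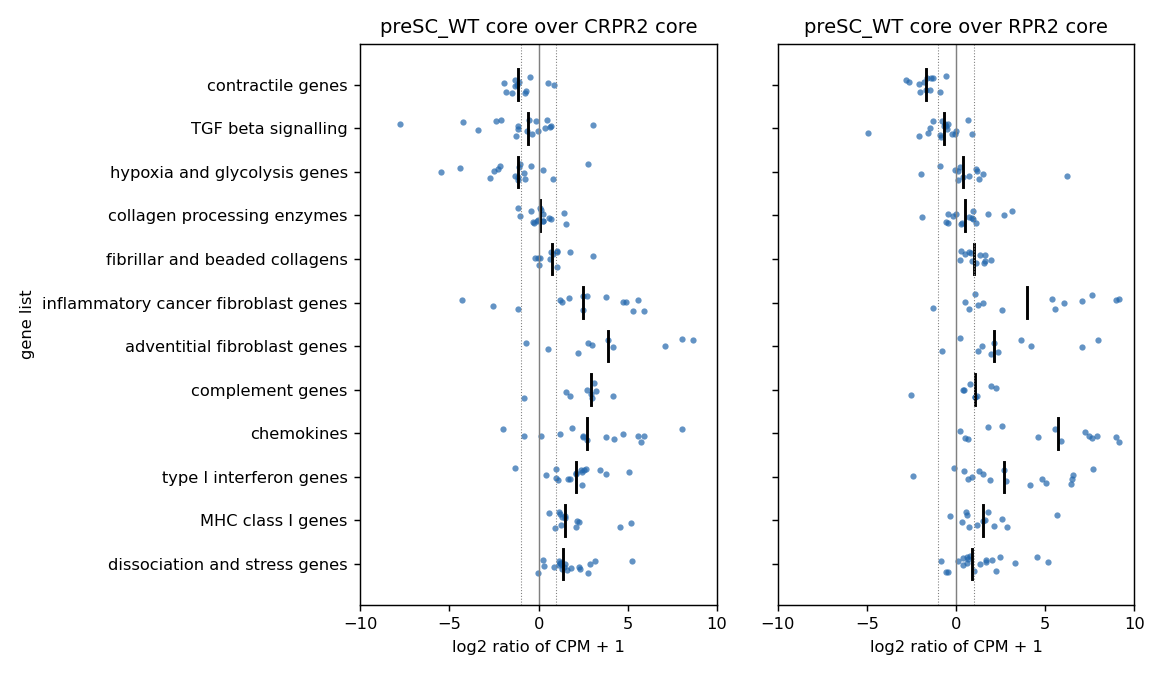
Log2 ratio of CPM + 1 in the allograft core over the CRPR2 core (left) and over the RPR2 core (right), by gene list, with 1 library per group; each point is 1 gene, black bars are medians and dotted lines mark 2-fold. The median of the adventitial list stands at 3.92 over CRPR2 and 2.14 over RPR2, and that of the contractile list at −1.16 over CRPR2 and −1.67 over RPR2.

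Interferon, MHC class I and stress genes also differed, but T cells of the same libraries differed with them in part. Type I interferon genes were higher for 12 of 16 in the allograft core against both lung cores. Their summed level was 2661 CPM in the allograft core, against 818 CPM in CRPR2 and 836 CPM in RPR2, and T cells held 1158 CPM in the allograft, against 728 CPM in CRPR2 and 626 CPM in RPR2. MHC class I genes were higher for 7 of 13 against both. Their sum was 5202 CPM in the allograft core, against 1476 CPM in CRPR2 and 2871 CPM in RPR2, while T cells held 5748 CPM in the allograft, against 5696 and 3989 CPM in CRPR2 and RPR2. Genes of dissociation and stress were higher for 7 of 20 against both and summed to 8985 CPM in the allograft core, against 3536 CPM in CRPR2 and 4326 CPM in RPR2. T cells ran the other way on the stress list, with 12163 CPM in the allograft, against 14670.1 CPM in CRPR2 and 15255 CPM in RPR2. Over the rule, no MHC class I gene of 13 was higher than in CRPR2. The part of handling or batch in these sums was not tested.

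Ranked by the smaller of the 2 ratios, the genes highest in the allograft core were led by Sfrp4, with 388 CPM and no UMI in either lung core (at least 109-fold and 13.1-fold). Sfrp2 had 673 CPM in the allograft core, against 1 UMI in CRPR2 (566-fold, 101 to 22366) and 0 in RPR2 (at least 22.7-fold). Ebf2, a transcription factor of adipogenic mesenchyme, had 187 CPM in the allograft core and none in either lung core. Prg4 was at least 45.1-fold higher than in CRPR2 and 5.43-fold higher than in RPR2, although the log2 ratio over CRPR2 was −0.04 when mixed cells were counted on both sides. Camk1d, Ptp4a1 and Nova1 ranked among these too, yet they differed likewise in T cells. Camk1d, for example, had 319.6 CPM in allograft T cells, against 28.5 and 35 CPM in those of CRPR2 and RPR2. Among the lowest, Rnasek, Atp6v0c, Mrpl53, Fdx1l and Gm10260 also differed in T cells, where Rnasek had 1.14 CPM in the allograft, against 284 and 345 CPM. Npnt, which encodes nephronectin, had 1.35 CPM in the allograft core, against 228 CPM in CRPR2 and 1924 CPM in RPR2. In T cells Npnt had 8.71 CPM in the allograft, against 39.7 CPM in CRPR2 and 8.88 CPM in RPR2. Ces1d, a carboxylesterase, had 0.673 CPM in the allograft core, against 71.4 CPM in CRPR2 and 671 CPM in RPR2, while tumour-gated cells held 65.4 CPM in the allograft, against 130.1 CPM in CRPR2 and 94.6 CPM in RPR2.

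Genes that carry position along the body are set in the embryo and kept by fibroblasts of the adult. Of 8 Hox genes measured against both lung cores, 4 were higher in the allograft core than in both and 2 lower, and of 20 fibroblast transcription factors 10 were higher and 3 lower. Hoxc8 had 49.8 CPM, Hoxc10 37.7 CPM, En1 51.8 CPM and Tbx15 51.1 CPM in the allograft core, and none had a UMI in either lung core. Hoxc9, Hoxa10 and Hoxc6, at 24.2, 23.5 and 17.5 CPM, also had none in the lung. The reverse was seen for lung mesenchyme factors. Tbx4 had 0 UMIs in the allograft core, against 70.2 CPM in CRPR2 (at least 34.8-fold lower) and 118 CPM in RPR2 (at least 58.7-fold lower). Tcf21 had 0 UMIs in the allograft core, against 17.8 CPM in CRPR2 and 197 CPM in RPR2. Hoxa5 had 2.69 CPM in the allograft core, against 48.8 CPM in CRPR2 (18.1-fold lower, 6.56 to 69.6) and 39.5 CPM in RPR2 (14.7-fold lower, 2.73 to 78.7).

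Pericytes of the same allograft carried the posterior genes as well, Hoxc8 at 45.1 CPM and Hoxc10 at 36.7 CPM, while endothelial cells had 0.861 CPM of Hoxc8 and no Hoxc10. Tbx15 was also seen in tumour-gated cells, at 53.0 CPM. In the RPR2 core the floor of 3 UMIs is 29.5 CPM, so a count of 0 there allows a level of up to that.

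**Figure D4:**
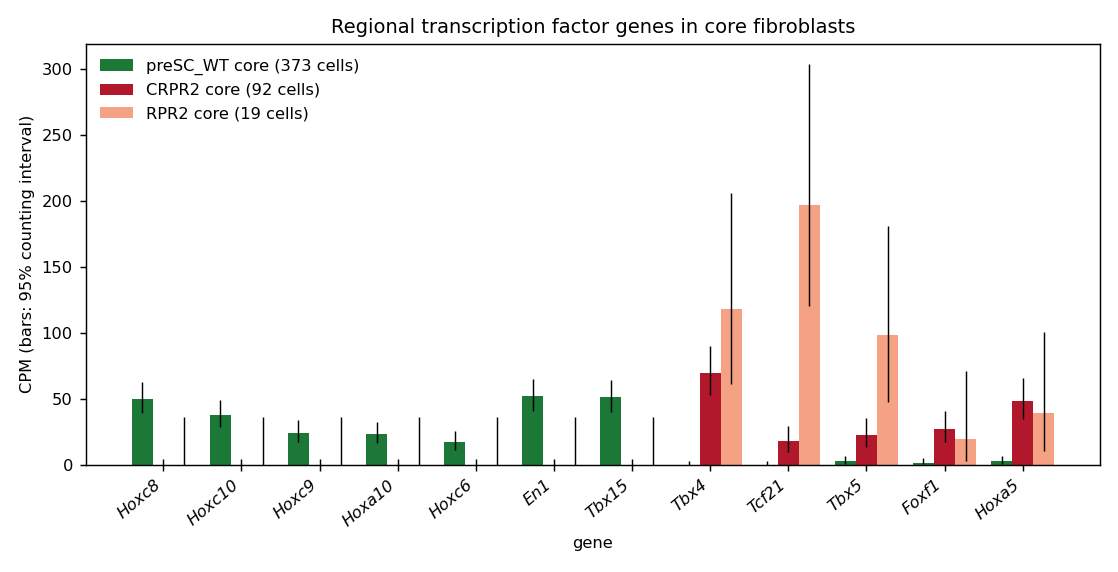
Bars give levels in CPM of position genes in the allograft core, the CRPR2 core and the RPR2 core, 1 library each, and lines are 95% counting intervals. Hoxc8, Hoxc10, En1 and Tbx15 lie between 37.6 and 51.8 CPM in the allograft core and at 0 in both lung cores, and Tbx4 and Tcf21 lie at 0 in the allograft core.

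Core fibroblasts also varied among themselves. Across 347 core cells thinned to 1000 UMIs, counts of Col1a1 and Col1a2 had a Pearson correlation of 0.67, and Col1a1 and Col3a1 one of 0.63, which share library and thinned depth. Col1a1 and Dcn had −0.07 and Pi16 and Postn −0.15. By the presence of Postn, a matrix protein of activated fibroblasts, and of Pi16, 101 cells (29.1%, 24.4 to 34.2) held Postn only and 77 (22.2%, 17.9 to 26.9) held Pi16 only. Another 38 (11%) held both and 131 (37.8%) neither. Median depth was 3971 UMIs in Postn-only and 3635 UMIs in Pi16-only cells.

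Against Pi16-only cells, 14.5% of measured genes were higher and 9.63% lower in Postn-only cells. The cells were chosen by 2 of their own genes, so the values describe them. Contractile genes were higher for all 12 members, genes of myofibroblastic cancer fibroblasts for 10 of 12 and collagens for 5 of 12. Markers of pericytes and smooth muscle moved with them, with 6 of 6 measured members higher, at a sum of 509.7 CPM in Postn-only and 28.6 CPM in Pi16-only cells. Their part in the contractile level was not tested. Contractile genes were not particular to Postn-only cells, since they summed to 5616 CPM in Postn-only cells, 6622 CPM in cells with neither gene, 861 CPM in cells with both and 454 CPM in Pi16-only cells. Cthrc1, a secreted protein of activated fibroblasts, had 608 CPM in Postn-only and 25 CPM in Pi16-only cells. Lox, which crosslinks collagen, had 554 CPM in Postn-only and 139 CPM in Pi16-only cells, and Bgn 4086 CPM in Postn-only and 1173 CPM in Pi16-only cells. Col1a1 had 8206 CPM in Postn-only and 4242 CPM in Pi16-only cells. Of 12 G2 and M genes 10 were higher, and 9 of 15 hypoxia and glycolysis genes, with Ldha, lactate dehydrogenase, at 606 CPM in Postn-only and 265 CPM in Pi16-only cells.

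Adventitial genes and part of the complement genes were at a higher level in Pi16-only cells. Of 11 adventitial genes 8 were lower in Postn-only cells, as were 4 of 9 complement genes, and none was higher. Complement genes summed to 4137 CPM in Postn-only cells, 7160.2 CPM in cells with neither gene and 10580.1 CPM in Pi16-only cells. Adventitial genes summed to 6916 CPM in Postn-only cells, 9190.1 CPM in cells with neither and 14668 CPM in Pi16-only cells. Keratinocyte markers moved the same way, with 2 of 3 measured members lower in Postn-only cells and a sum of 138 CPM in Postn-only and 955 CPM in Pi16-only cells, and their part was not tested. Dpp4 had 79.7 CPM in Postn-only and 297 CPM in Pi16-only cells, and Cd55, which dampens complement, 69.2 CPM in Postn-only and 408 CPM in Pi16-only cells. C3 had 927 CPM in Postn-only and 3784 CPM in Pi16-only cells. Decorin (Dcn) had 3530.4 CPM in Postn-only and 8516 CPM in Pi16-only cells, while Col3a1 was at 13818 CPM in Postn-only and 11596 CPM in Pi16-only cells. Igfbp6 and Clec3b had 1103 and 661 CPM in Postn-only cells, against 3305 and 2536 CPM in Pi16-only cells. Stress genes were lower for 16 of 20, with Fos at 373 CPM in Postn-only and 1373 CPM in Pi16-only cells, and the part of dissociation in the division was not tested.

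A few cells set the contractile level. At least 3 UMIs of Myh11, smooth muscle myosin, were held by 10 core cells (2.68%, 1.29 to 4.88), and these held 1333 of the 1789 Acta2 UMIs of the core. Without them Acta2 stood at 321 CPM in the remaining 363 cells, against 1203 CPM in all. With such cells left out, 96 Postn-only and 77 Pi16-only cells remained, and all 8 contractile genes still measured were higher in Postn-only cells, as were both pericyte and smooth muscle markers still measured. Acta2 then had 453 CPM in Postn-only and 39.3 CPM in Pi16-only cells, and Tagln 406 CPM in Postn-only and 0 in Pi16-only cells.

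**Figure D5:**
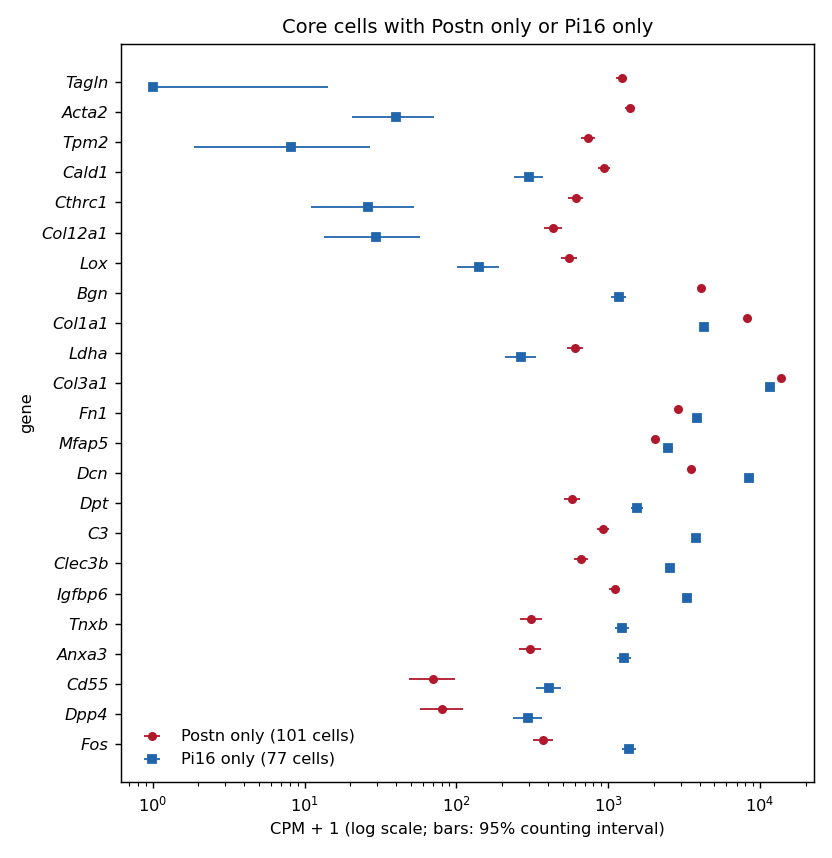
Levels as CPM + 1, on a log axis, of genes in the 101 core cells with Postn only and the 77 with Pi16 only, in 1 library; lines are 95% counting intervals. Tagln, Acta2 and Cthrc1 lie higher in Postn-only cells, and Cd55, Dpp4, C3 and Dcn lie higher in Pi16-only cells.

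In the library labelled preSC_CracdKO 5 core cells were found among 16137 passing barcodes (0.031%), against 373 of 18468 in the library labelled preSC_WT. Their 39985 UMIs held fibrillar and beaded collagens at 34638 CPM, against 33161 CPM in preSC_WT, and contractile genes at 8428 CPM, against 4514 CPM. Complement genes summed to 3151 CPM in preSC_CracdKO, against 6889 CPM in preSC_WT. Fewer such cells in the tumour and fewer recovered from it cannot be told apart.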

How the data were processed

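Single-cell RNA was measured with 10x 3′ v3.1 chemistry after enzymatic digestion and removal of dead cells, per the labels' protocols. The authors deposited 4 matrices of raw UMI counts per gene and barcode. They were written by Cell Ranger 5.0.0 for the allografts and 6.1.2 for the lungs, per the file headers. Scanpy 1.8.2, Seurat 1.8.2, Cell Ranger 6.1.2 and build mm10 are listed in the submitters' processing notes. The annotation release is not given in the sources used here. The members and gene lists were chosen with earlier results of these data known.

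Raw counts were summed per cell group and expressed as CPM. Lung comparisons used the 30406 identifiers in both annotations. Members were measured where the higher group held at least 20 CPM, and ratios were taken after adding 1 CPM, while printed fold changes are ratios of CPM. Sums carry Poisson, ratios conditional binomial and shares Clopper-Pearson intervals at 95%. A group at 0 was set to 3 UMIs for a lower bound. Gates were pericyte (Rgs5 at least 3 UMIs), endothelial, macrophage, T cell and tumour, each from a few marker genes. The tumour gate left out barcodes that met the rule or another gate. One gene of the epithelial sum that divides the members is not reported here. Doublets were scored with Scrublet and kept in the main values. Where its threshold marked under 0.5% of cells, as in CRPR2 and preSC_CracdKO, the highest scores were taken at 0.8% per 1000 barcodes. Thinning used the seed 1. Genes were named by rule: the rule's genes and markers, up to 4 of the highest in each list, the 15 highest ratios against the rest, and the 10 highest and lowest against pericytes and both lungs at 50 CPM or more. Other genes named as examples were chosen after their values were seen. Alternatives were a higher limit on the matrix sum, a lower mitochondrial limit, a higher gene minimum, no epithelial UMI and doublets removed. Others were a mean over cells, other minimum and added CPM, and mitochondrial, ribosomal and haemoglobin genes left out. A further 2 definitions were set after seeing the data (collagens without Dcn, and the core). Python 3.11.15, numpy 2.4.6, scipy 1.17.1, pandas 2.3.3, scanpy 1.11.5, anndata 0.12.19 and matplotlib 3.10.9 were used, and the counting steps were tested on simulated data.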

Additional observations from a re-analysis of the deposited data

How the results depend on the processing

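No paired analysis was possible because each group held 1 library and no result came from a test, and no library could be left out. The number of members was 582 by the rule, 326 with no epithelial UMI and 373 in the core, a definition chosen after seeing the data. The share of thinned members with Pi16 was 22% by the rule, 31.2% with a matrix sum of at least 20 UMIs, 33.7% with no epithelial UMI, 29.2% with 5 collagen UMIs without Dcn (also chosen after seeing the data) and 33.1% in the core. That with Postn was 28.3% by the rule, 39.5% with a sum of 20 and with collagens alone, 42% with no epithelial UMI and 40.1% in the core.

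Genes higher than in the rest numbered 811 by the rule, 1318 with a sum of 20, 1510 with no epithelial UMI, 1331 with collagens alone, 1517 in the core and 1311 with a minimum of 5 CPM. Genes lower than in the rest numbered 164 by the rule, 2579 with a sum of 20, 3485 with no epithelial UMI, 2585 with collagens alone, 3439 in the core, 1390 with a mean over cells, 511 with a minimum of 5 CPM and 107 with 5 CPM added. Against pericytes the 751 higher became 1151 with doublets removed and 1438 with a minimum of 5 CPM, and the 763 lower became 2171 with no epithelial UMI, 2118 in the core and 1161 with a minimum of 5 CPM. Against CRPR2 the 1318 higher became 2023 with a minimum of 5 CPM, and the 547 lower became 1023 with a sum of 20, 1126 with a mean over cells and 1037 with a minimum of 5 CPM. Against RPR2 the 1400 higher became 2141 with a minimum of 5 CPM. The 740 lower became 1968 with a sum of 20, 2215 with no epithelial UMI, 1425 with collagens alone, 1716 in the core, 1461 with a mean over cells and 1308 with a minimum of 5 CPM. Of 1311 further comparisons of single genes, 720 moved by less than 0.5 on the log2 scale or, for levels, stayed within their counting interval, 590 moved by more, and 1 reversed: the log2 ratio of Prg4 over CRPR2 was −0.04 with collagens alone. The cause of the reversal was not tested. The pooled count hides the settings that matter most, since 107 of 121 moved in the core and 111 of 121 with no epithelial UMI. All 116 stayed with a minimum of 5 CPM, which cannot change a log2 ratio. All 121 stayed with at most 10% mitochondrial UMIs, a limit that kept 581 members. Depth limits the 5 cells of the library labelled preSC_CracdKO and the 19 of RPR2.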

Other observations

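Genes around actin capping, the process Cracd is named for, were counted as well. Of 11 measured members, 1 was higher and 2 lower in the allograft core than in pericytes, beside 9.72% and 26.4% of all measured genes. Against the RPR2 core 2 were higher and 1 lower, beside 22.2% and 23.6%. None was higher or lower than in the CRPR2 core, beside 14.6% and 10.4%. Against all other barcodes 3 were higher and 3 lower, beside 17.2% and 38.9%. With 11 members, these counts are not read as a result on capping genes. Actb, cytoplasmic actin, had 3976 CPM in the allograft core, against 5635 CPM in pericytes and 5626 CPM in the CRPR2 core. Capzb, the beta chain of capping protein, had 175 CPM in the allograft core, against 164 CPM in pericytes and 250.1 CPM in the CRPR2 core. Vim, vimentin, separated the core from the tumour with 3424 CPM in the core and 5.34 CPM in tumour-gated cells.

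Mesenchymal transcription factors and ligands filled out the profile. Prrx1, a homeobox factor of limb and body wall mesenchyme, had 482 CPM in the allograft core, against 202 CPM in the CRPR2 core and 206 CPM in the RPR2 core. Twist1 had 153 CPM in the allograft core, against 20.2 CPM in the CRPR2 core and 19.7 CPM in the RPR2 core. Gas6, a ligand of the TAM receptors, had 464 CPM in the allograft core, against 39.5 CPM in pericytes and 0.656 CPM in tumour-gated cells. Apod, apolipoprotein D, had 534 CPM in the allograft core, against 9.87 CPM in pericytes. Glycolysis and hypoxia genes were lower in the allograft core than in the CRPR2 core for 11 of 17 measured members, beside 10.4% of all measured genes. Bnip3 had 26.2 CPM in the allograft core and 151 CPM in the CRPR2 core. Against the RPR2 core 1 of 13 was lower and 5 were higher, beside 23.6% and 22.2% of all measured genes. Of 13 members measured against both lung cores, 1 was lower than in both and 1 higher than in both. Ddx3y, of the Y chromosome, had 64.5 CPM in core fibroblasts, against 46.5 CPM in pericytes and 4.78 CPM in tumour-gated cells, and Xist had no UMI in the core, against 0.211 CPM in tumour-gated cells.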
